A study of Mus musculus with 2 samples.

Results

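The genes described here are the Wnt ligands, their Frizzled and Lrp receptors, the secreted antagonists and agonists of the pathway and the feedback target Axin2. They were chosen by symbol: every gene named Wnt, Fzd, Sfrp, Dkk or Rspo followed by a digit, plus Wif1, Frzb, Lrp5, Lrp6 and Axin2. This gave 48 of the 32285 genes counted, of which 19 carried a Wnt symbol, 11 an Fzd symbol, 4 an Sfrp symbol, 4 a Dkk symbol and 5 an Rspo symbol. Rspo4os and Fzd10os are antisense genes. Rspo4os lies inside Rspo4 on the other strand, whereas Fzd10os and Fzd10 do not overlap. The use of strand in the counting is not stated, and in the kept barcodes Rspo4 had 0 UMIs and Rspo4os 2.

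Wnt proteins are secreted, lipid-modified ligands that bind a Frizzled receptor, and with the co-receptors Lrp5 and Lrp6 they stabilise β-catenin, which acts with Tcf and Lef factors on target genes such as Axin2. Secreted Frizzled-related proteins (Sfrp, Frzb) and Wif1 bind the ligands outside the cell, Dickkopf proteins (Dkk) act on the Lrp co-receptors, and R-spondins (Rspo) keep Frizzleds at the cell surface. In the artery wall the pathway is known for roles in smooth muscle growth, endothelial identity and calcification.

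The cells came from aortas of ApoE-/- mice aged 20 weeks, which lack apolipoprotein E and develop plaques, and were run as 3' droplet single-cell RNA sequencing. There were 2 samples, 1 labelled HFD and 1 labelled MSC_ITGB3, and the series text asks how aortic cells differ in HFD-fed mice given or not given MSC_ITGB3. Both samples share the ApoE-/- genotype, the age and, by that text, the HFD feeding. The labels do not say how many mice were pooled or what MSC_ITGB3 contains. The counts form 2 libraries, told apart by the ending of the barcode, and nothing ties an ending to a sample, so they are called library 1 and library 2 and no treatment comparison was made. Paired values are library 1 and then library 2.

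Barcodes with at least 3000 unique molecular identifiers (UMIs) and at most 20% mitochondrial UMIs numbered 6332 and 6540, with medians of 8746 and 6031 UMIs, and 17 barcode sequences occurred in both libraries. A marker gate put 9430 of them (73.3%) in a class and left 2690 with no class. A further 752 still passed more than 1 list after set priorities between related lists and were left out. Under those priorities a barcode that passed several related lists was kept in 1 class, so a class can carry markers of a related one. Of the gated barcodes, 1291 lay close to the threshold of 2, at ratios up to 2.5. A class name says which markers its barcodes carried and no more, and 8 classes held 50 or more barcodes in each library: contractile smooth muscle (934 and 1463), modulated smooth muscle (197 and 261), fibroblast (1265 and 1118), chondrocyte (115 and 608), endothelial (1131 and 323), macrophage (426 and 411), T or NK (176 and 130) and a class gated on a small-vessel mural list (253 and 264). In that last class only 2 of 9 listed markers were 2-fold above the other classes, so it is called the mural-list class and given no cell name. In the other 7 classes at least 6 of the listed markers were. Chondrocyte-like barcodes also carried fibroblast markers, at a summed 21140 and 12320 CPM (UMIs scaled to a library or class total of 1000000), and their median depth was 15246 UMIs in library 1 and 4545 in library 2. The same sum was 9034 and 7961 CPM in modulated smooth muscle and 7402 and 5399 CPM in the mural-list class. In contractile smooth muscle it was 1882 and 1811 CPM. For Apoe itself the endothelial level was 32.2 and 33.1 CPM, the macrophage level 13.1 and 8.30 CPM and the free RNA level 33.6 and 13.6 CPM. Where its UMIs lie relative to the deleted stretch is not shown by these counts, so they do not check the genotype. Free RNA, estimated from the markers of other classes, made up 3.14% to 7.27% of a class's UMIs in library 1 and 4.16% to 9.92% in library 2. In free RNA itself Sfrp2 stood at 272 and 315 CPM, Sfrp4 at 296 and 236 CPM and Sfrp1 at 311 and 113 CPM. Frzb stood there at 170.5 and 297 CPM. Low levels of these genes in other classes therefore include free RNA.

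Levels are CPM of the UMIs summed over a class and library. Bracketed ranges are 95% exact Poisson intervals that cover counting error only, and with 1 library per sample there is no replicate check and no p-value. Of the 48 genes, 46 had a UMI in the kept barcodes and Rspo4 and Wnt7a had none. By the lower of the values of both libraries in a class, 18 reached 20 CPM in some class, 9 reached 5 to 20 CPM, and 19 with UMIs stayed below 5 CPM. Of those 19, Axin2 and Wnt10a passed 5 CPM in library 1 alone. For 15 of the 18 the highest class was the same in both libraries.

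Sfrp1 stood at 1017 CPM (1001 to 1033) and 912 CPM (879 to 945) in endothelial-like barcodes. The next class, fibroblast-like, had 91.2 and 115 CPM, and contractile smooth muscle had 9.55 and 8.52 CPM, so the endothelial class did not overlap with any other in either library. Sfrp1 was uneven between endothelial clusters. The cluster led by Vwf and Ptprb (677 and 142 barcodes) had 1276 and 1355 CPM. The cluster led by Sprr2b and Igfbp3, which also leads in Emcn, had 150 and 41.6 CPM in only 150 and 26 barcodes. A further endothelial cluster, led by Stmn2 and Glycam1 (548 and 240 barcodes), is not compared here. Dkk2, which binds the Lrp co-receptors, was also highest in the endothelium, at 107 CPM (102 to 113) and 87.4 CPM (77.6 to 98.1). In the remaining classes Dkk2 reached at most 10.8 and 11.8 CPM, both in modulated smooth muscle.

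Sfrp4 was highest in fibroblast-like barcodes, at 1342 CPM (1323 to 1361) and 788 CPM (771 to 805), against 132 and 100 CPM in the mural-list class. Cluster levels cover all barcodes of a cluster, gated or not. Among clusters named fibroblast, the cluster led by Opcml and Adgrd1 had 2834 and 1245 CPM of Sfrp4. The cluster led by Saa3 and Chl1, with 165 of 393 barcodes gated as fibroblast, had 1884 and 3417 CPM. The cluster led by Inmt and F3 had 323 and 504 CPM. The Opcml and Saa3 clusters exchanged their order between the libraries, and both stayed above the Inmt cluster. A further fibroblast cluster, led by Apod and Myoc (161 and 742 barcodes), is not compared here. Sfrp2 was spread over fibroblasts, modulated smooth muscle and the mural-list class. It stood at 498 and 771 CPM in fibroblasts and at 626 and 457 CPM in modulated smooth muscle. The highest class therefore differed between the libraries. The mural-list class had 458 and 255 CPM of Sfrp2, and contractile smooth muscle 108 and 95.5 CPM. Between the Inmt and Opcml clusters Sfrp2 ran the other way from Sfrp4, with 683 and 1161 CPM in the Inmt cluster and 373 and 492 CPM in the Opcml cluster.

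Frzb, a Frizzled-related protein known from cartilage, was highest in chondrocyte-like barcodes at 686 CPM (652 to 720) and 924 CPM (900.1 to 948). Modulated smooth muscle followed with 423 and 348 CPM, and the mural-list class had 396.5 and 207 CPM. In library 1 the intervals of these classes overlapped. Fibroblasts had 195 and 206 CPM, the endothelium 165 and 218 CPM, and contractile smooth muscle 50.7 and 48.7 CPM. Frzb was therefore above the contractile level in modulated and in mural-list barcodes of both libraries, with intervals that did not overlap. Both classes also carried more fibroblast markers than contractile barcodes, and the part of such RNA in this difference was not tested. Wif1, which binds Wnt ligands directly, was at 196 and 74.9 CPM in chondrocyte-like barcodes and at 23.6 and 83.6 CPM in fibroblast-like ones, and the class with the highest level differed between the libraries. Dkk3, a divergent Dickkopf, was broad. It stood at 286 and 275 CPM in modulated smooth muscle, 268 and 238 CPM in the mural-list class and 230.2 and 273 CPM in fibroblasts. Contractile smooth muscle had 149 and 176 CPM and the endothelium 17.9 and 41.6 CPM. In library 2 the modulated and fibroblast levels of Dkk3 did not differ beyond their intervals.

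**Figure D1:**
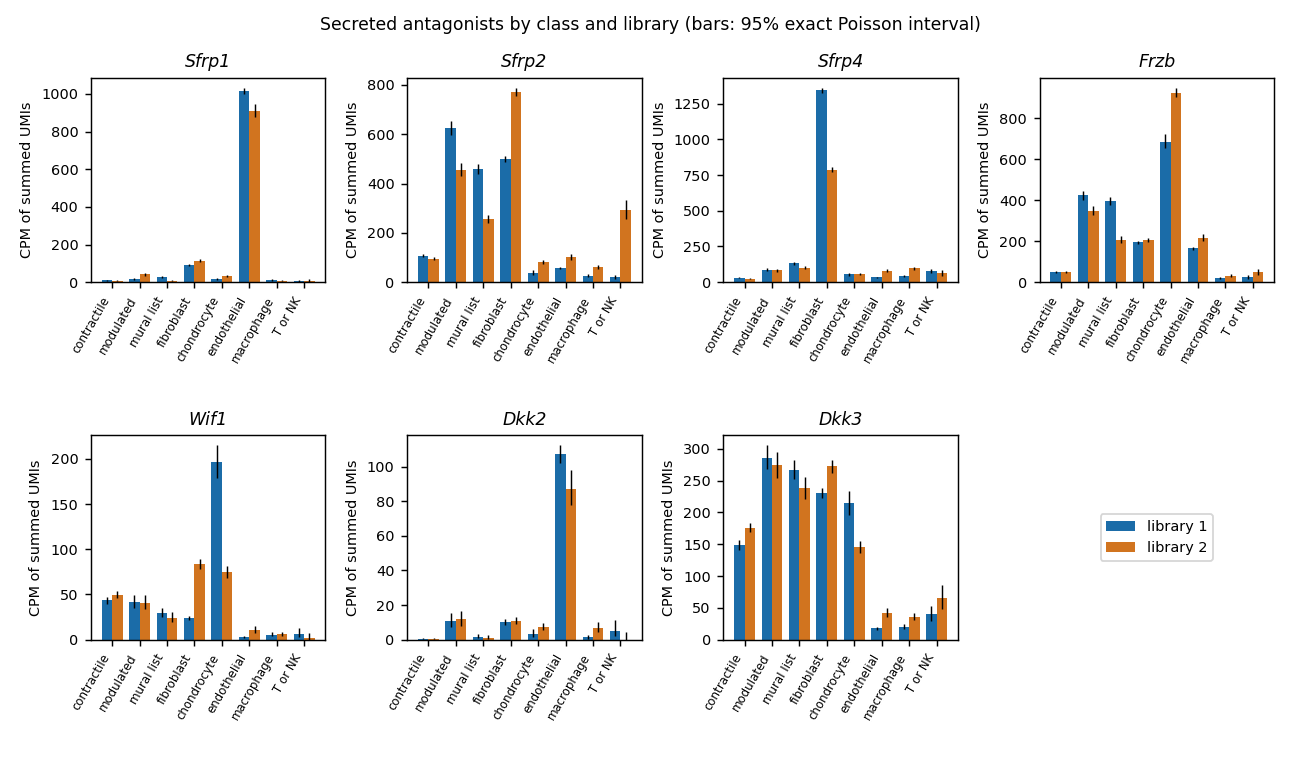
CPM of summed UMIs (vertical axes) for 7 secreted antagonists in the 8 gated classes, with 1 bar per library and bars for the 95% exact Poisson interval. Sfrp1 and Dkk2 peak in the endothelial class, Sfrp4 in fibroblasts and Frzb in chondrocytes in both libraries, whereas Sfrp2 and Wif1 have a different highest class in each library.

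Of the ligands, 2 of 19 genes with a Wnt symbol reached 20 CPM in both libraries. Wnt5a, a ligand known for signalling outside the β-catenin branch, was at 69.0 CPM (64.8 to 73.3) and 69.4 CPM (64.5 to 74.6) in fibroblasts, and at most 7.88 and 9.96 CPM in any other class. Its highest fibroblast cluster was the Inmt cluster, at 146 and 113 CPM. Wnt2 stood at 25.6 and 12.6 CPM in fibroblasts and was concentrated in the Opcml cluster, at 76.8 CPM (69.7 to 84.5) and 59.0 CPM (49.8 to 69.4), against 7.04 and 2.76 CPM in the Inmt cluster. Wnt2 and Wnt5a thus had different highest clusters among the fibroblast clusters. Wnt9a, Wnt11 and Wnt10b, all between 5 and 20 CPM, were also highest in fibroblasts by the lower of their library values, at 12.5 and 10.0, 11.6 and 6.77, and 10.8 and 5.10 CPM.

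Wnt16 was the ligand of the smooth muscle. It stood at 36.7 CPM (33.2 to 40.5) and 61.0 CPM (56.9 to 65.2) in contractile, 36.7 CPM (30.2 to 44.1) and 86.6 CPM (75.7 to 98.6) in modulated and 28.5 and 77.5 CPM in mural-list barcodes, and at or below 2.11 and 6.07 CPM in the remaining classes. The intervals of the contractile and modulated levels of Wnt16 overlapped in library 1, and in library 2 the modulated level was higher. Clusters made mostly of barcodes gated as contractile differed. The cluster led by Sost had 56.5 and 66.1 CPM and the cluster led by Erbb4 and Kcnip4 had 43.9 and 62.0 CPM. The cluster led by Timp4 and Pln, of whose 296 barcodes 243 were gated as contractile, had 0.944 and 7.59 CPM. In a further cluster of 102 barcodes, 77 of them gated as contractile and led by Nrip2 and Pln, Wnt16 gave no UMI in either library, with upper limits of 4.48 and 17.8 CPM. The Timp4 and Nrip2 clusters got no class name, and Pln, with Notch3 in the Nrip2 cluster, is on the small-vessel mural list. Of the mural-list barcodes, 186 lay in the cluster led by Igfbp2, 73 in the Sost cluster and 72 in the Erbb4 cluster, against 14 and 21 in the Timp4 and Nrip2 clusters. Which cells these clusters hold was not tested. Wnt5b was highest in chondrocyte-like barcodes in library 1, at 13.99 CPM, and in modulated smooth muscle in library 2.

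**Figure D2:**
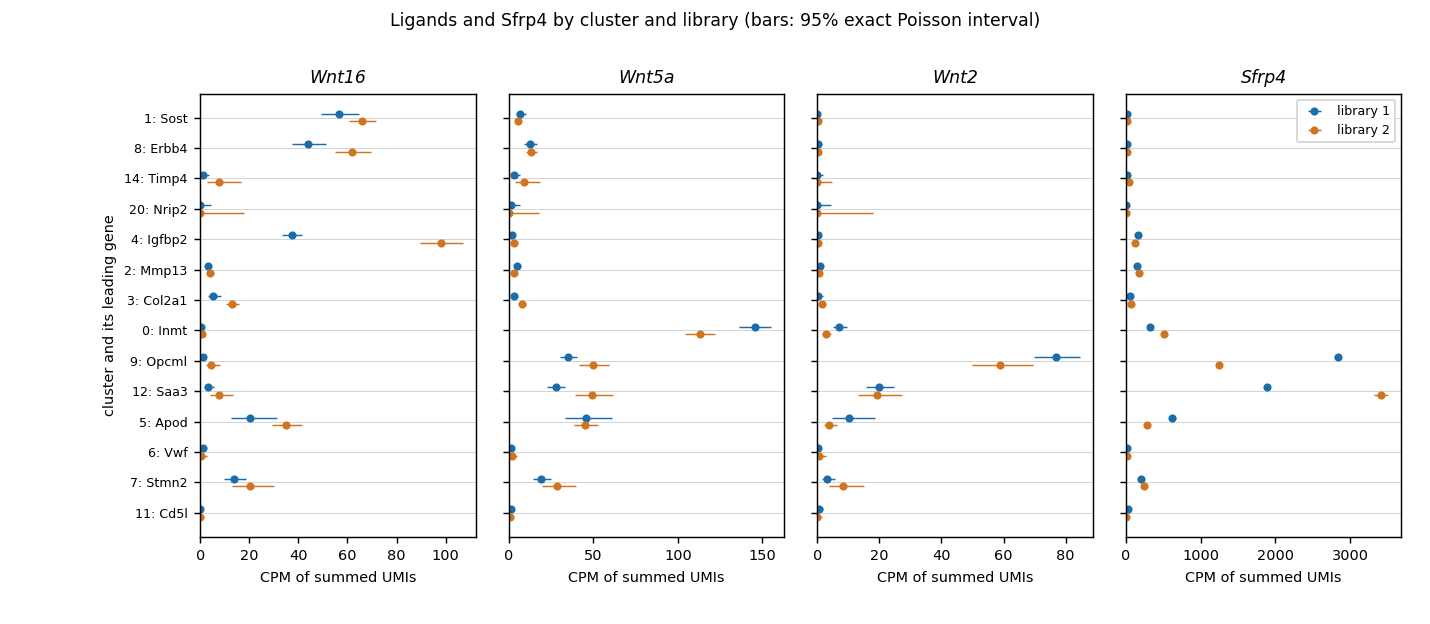
CPM of summed UMIs (horizontal axes) of Wnt16, Wnt5a, Wnt2 and Sfrp4 in 14 clusters named by number and leading gene, as points per library with 95% exact Poisson intervals. Wnt16 lies in the Sost, Erbb4 and Igfbp2 clusters and is near 0 in the Timp4 and Nrip2 clusters, while Wnt5a and Wnt2 peak in different fibroblast clusters.

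Receptors divided by class as well. In the endothelium Fzd4, the receptor of norrin as well as of Wnts, was at 130.2 and 107 CPM, Fzd6 at 116 and 105 CPM and the co-receptor Lrp5 at 63.2 and 59.2 CPM. Fzd6 was at most 11.5 and 11.8 CPM elsewhere among the 8 classes. Fzd4 was also present in fibroblasts, at 84.0 and 64.5 CPM. Fzd9 marked the chondrocyte-like barcodes, at 58.6 CPM (49.1 to 69.4) and 105 CPM (97.3 to 114), and no other class passed 8.50 and 9.92 CPM.

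The mural and stromal classes shared a further set of Frizzleds. Fzd1 was highest in modulated smooth muscle, at 132 and 128 CPM, although in library 2 its interval overlapped that of fibroblasts at 127 CPM. Fzd2 was highest in contractile smooth muscle at 61.1 and 82.9 CPM, and Fzd7 also there at 29.1 and 48.6 CPM. In library 1 the contractile level of Fzd7 did not differ beyond its interval from 27.2 CPM in modulated smooth muscle. Fzd8 was highest in the mural-list class, at 24.2 and 27.1 CPM, with intervals that overlapped those of modulated smooth muscle (20.0 and 19.4 CPM). With classes taken from Leiden clusters the mural-list class held only 32 and 16 barcodes, and its Fzd8 level was 25.7 and 6.64 CPM. With so few barcodes, that value does not settle the place of Fzd8 in library 2. The co-receptor Lrp6 was found in every class, from 95.5 and 101 CPM in fibroblasts down to 34.1 and 30.2 CPM in T or NK barcodes. Fzd5 stayed low, with its highest level in modulated smooth muscle at 14.7 and 19.4 CPM.

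**Figure D3:**
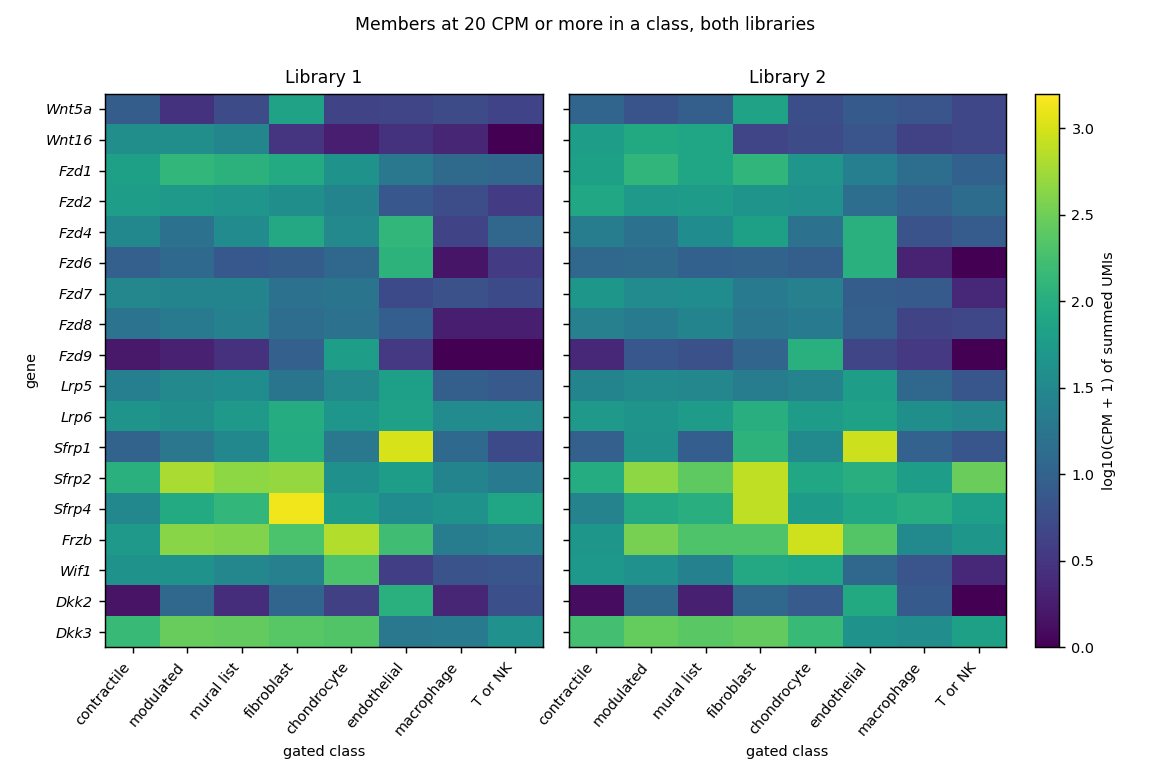
Heat map of the 18 genes that reached 20 CPM in a class in both libraries (rows) over the 8 gated classes (columns), coloured by log10(CPM + 1), with 1 panel per library. Macrophage and T or NK columns are dark for most genes, and Sfrp1, Sfrp4 and Frzb are the brightest cells of the endothelial, fibroblast and chondrocyte columns.

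Among the agonists, Rspo3 was, of the 8 classes, highest in contractile smooth muscle at 18.1 and 23.8 CPM and Rspo2 in modulated smooth muscle at 17.02 and 19.8 CPM, where contractile barcodes had 0.5 CPM of Rspo2 in each library. Axin2, the feedback target, was low throughout: its highest class was T or NK at 14.5 CPM (17 UMIs) and 3.77 CPM (3 UMIs), and the other 7 classes had 0 to 4.11 CPM in library 1 and 0.268 to 3.43 CPM in library 2. In library 2 the interval of the T or NK level (0.778 to 11.02) held the fibroblast level of 3.43 CPM, so that order rests on library 1. Schwann-like barcodes (62 and 32, below the limit of 50 in library 2) are named here after their values were seen. They held 311 and 640 CPM of Sfrp5, 133 and 106 CPM of Fzd3 and 39.2 and 80.7 CPM of Wnt6, and in the 8 classes Sfrp5 and Wnt6 stayed below 5 CPM. In the 8 classes Fzd3 was highest in the endothelium, at 14.03 and 7.28 CPM. In 30 lymphatic-like barcodes of both libraries together, also named after their values were seen, Fzd6 was at 126 CPM, Fzd4 at 89.8 CPM, Wnt2 at 58.9 CPM (36.5 to 90.1) and Rspo3 at 56.1 CPM (34.3 to 86.7).

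A gene was called led by a class when it was at least 2-fold above all other gated barcodes and at 5 CPM or more in both libraries. Of the 27 of these genes that reached 5 CPM in a class of both libraries, fibroblasts led 7 (Sfrp2, Sfrp4, Wnt2, Wnt5a, Wnt9a, Wnt10b and Wnt11), where 4.49% of all genes that could be called were led. The endothelium led 6 (Dkk2, Sfrp1, Fzd3, Fzd4, Fzd6 and Lrp5) against a background of 8.61%, and contractile smooth muscle led 4 (Wnt16, Rspo3, Fzd2 and Fzd7) against 4.92%. Chondrocyte-like barcodes led 3 (Frzb, Fzd9 and Wnt5b) against 4.08%, modulated smooth muscle 2 (Wnt16 and Rspo2) against 1.16% and the mural-list class 1 (Wnt16) against 0.644%. Macrophages led 0 against 9.93% and T or NK barcodes 0 against 13.0%. With so few genes and no test, all of these counts, those of 0 included, are descriptions only.

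Other genes of the pathway were counted by the same rule over a list of receptors, inhibitors, intracellular parts and targets, of which 54 could be called. The share led was 18.5% in the endothelium against 8.61% of all genes, 13.0% in chondrocyte-like barcodes against 4.08%, 9.26% in contractile smooth muscle against 4.92% and 9.26% in fibroblasts against 4.49%. It was 9.26% in T or NK barcodes, below their 13.0% of all genes, and 1.85% in modulated smooth muscle, near its 1.16%. The endothelium led 10, including Tcf7l1, a Tcf repressor, at 191 and 188 CPM, Ctnnb1, which encodes β-catenin, at 475 and 476 CPM, Apc at 81.6 and 84.1 CPM, Tspan12, a partner of Fzd4, at 63.6 and 53.7 CPM, and Prickle2 at 77.6 and 78.0 CPM. Contractile smooth muscle led 5, including the secreted inhibitor Sost at 395 and 681 CPM, the R-spondin receptor Lgr6 at 105 and 145 CPM and the Wnt-cleaving protease Trabd2b at 82.2 and 81.1 CPM. Chondrocyte-like barcodes led 7, including Camk2d, Nfatc1 at 270.2 and 288 CPM and Cthrc1 at 124 and 175 CPM. Fibroblasts led 5, including Igfbp4 at 2284 and 1990.0 CPM, the glypican Gpc3 at 117 and 130 CPM, Myc at 94.8 and 63.6 CPM and Prickle1 at 60.1 and 69.4 CPM. T or NK barcodes led 5, including the factors Tcf7 (150.2 and 91.8 CPM) and Lef1 (147 and 55.3 CPM) and the ligase Znrf3 (149 and 74.2 CPM). Modulated smooth muscle led 1, the receptor Ror1, at 396 and 350 CPM. The macrophage and mural-list classes led 0.

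The stretch of 250 bases before the start is printed for 3 genes with different patterns: Dkk2, highest in the endothelium, Sfrp2, high in fibroblasts and modulated smooth muscle, and Wnt16, high in smooth muscle. Sequences are from RefSeq (GRCm38.p6), which matched 30 of the 48 genes. Capitals mark the 6 letters CTTTGA or CTTTGT, the core read by Tcf and Lef factors, on either strand (TCAAAG and ACAAAG on the other strand). The letters were found in 7 of the 30 matched stretches (23.3%) and in 27.7% of the first listed stretches of 27025 genes, so their presence is a description and marks no site.
Dkk2, chr3:132085042-132085291, + strand: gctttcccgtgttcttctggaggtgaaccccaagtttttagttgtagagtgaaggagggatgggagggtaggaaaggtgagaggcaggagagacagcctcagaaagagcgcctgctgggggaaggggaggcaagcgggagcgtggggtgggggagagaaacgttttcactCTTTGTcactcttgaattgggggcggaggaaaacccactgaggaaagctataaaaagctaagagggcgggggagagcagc
Sfrp2, chr3:83766071-83766320, + strand: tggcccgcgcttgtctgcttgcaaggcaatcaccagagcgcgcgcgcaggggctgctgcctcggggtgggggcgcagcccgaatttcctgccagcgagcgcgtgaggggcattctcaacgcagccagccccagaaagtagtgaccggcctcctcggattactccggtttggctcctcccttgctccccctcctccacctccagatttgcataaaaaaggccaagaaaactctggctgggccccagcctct
Wnt16, chr6:22287977-22288226, + strand: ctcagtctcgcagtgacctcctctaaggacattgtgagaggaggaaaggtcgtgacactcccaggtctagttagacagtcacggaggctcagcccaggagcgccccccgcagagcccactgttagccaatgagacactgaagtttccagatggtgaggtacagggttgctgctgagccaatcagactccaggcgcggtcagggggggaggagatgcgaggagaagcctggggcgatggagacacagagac
The core letters occur once in the Dkk2 stretch, 80 bases before the start, and are not among the letters of the Sfrp2 and Wnt16 stretches.

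Between the libraries, a gene was counted where the ratio of CPM was past 2-fold, its exact interval left out 1 and it had at least 20 UMIs. This compares 2 libraries and not the treatment. Contractile smooth muscle had 0 of 25 genes past it, against 4.1% of all genes. Fibroblasts had 3 of 35, against 4.14%: Wif1 was 3.54-fold higher in library 2 (3.13 to 4.02), whereas Wnt2 and Wnt10b had ratios of 0.493 (0.402 to 0.601) and 0.471 (0.340 to 0.644). UMIs of Wif1 lay in 135 of 1265 and 146 of 1118 fibroblast-like barcodes.

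Modulated smooth muscle had 5 of 23 genes past it, against 4.47%. Wnt16 was 2.36-fold higher in library 2 (1.88 to 2.99), Sfrp1 2.42-fold (1.73 to 3.42), and Fzd9 and Wnt5a, with 17 and 15 UMIs in library 2, were higher too, whereas Wnt10a (16 and 4 UMIs) was lower. The mural-list class had 4 of 23, against 6.96%, with Wnt16 2.72-fold (2.19 to 3.40) and Fzd9 higher and Sfrp1 (0.271) and Rspo2 (0.372) lower in library 2. Of the 12 Rspo2 UMIs there in library 2, 7 came from 1 barcode. Wnt16 also differed inside the Igfbp2 cluster, at 37.4 CPM (33.5 to 41.5) and 97.9 CPM (89.5 to 107), with intervals that did not overlap.

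Chondrocyte-like barcodes had 5 of 23 genes past it, against 8.69%: Sfrp2, Dkk2 and Wnt16 were higher and Fzd4 and Wif1 lower in library 2. Dkk2 had 7 and 46 UMIs and Wnt16 had 2 and 29, and the Wnt16 UMIs of library 1 came from 1 barcode. The chondrocyte marker sum was 12140 and 22370 CPM in the same barcodes, and its part in these ratios was not tested. Endothelial-like barcodes had 6 of 24, against 5.48%, all higher in library 2: Wnt16, Dkk3, Rspo3, Wif1, Fzd2 and Sfrp4, none of which the endothelium led. In library 2, 11 of 20 Wnt16 UMIs and 8 of 16 Rspo3 UMIs came from 1 barcode, and without the top barcode of each library, a comparison chosen after the values were seen, Wnt16 was at 1.61 and 2.73 CPM and Rspo3 at 2.08 and 2.43 CPM, both under 2-fold. Their sum of contractile markers was 1438 and 3000 CPM and of fibroblast markers 2556 and 3523 CPM. Macrophages had 4 of 16, against 7.3% (Sfrp2, Sfrp4, Dkk2 and Rspo3, all higher in library 2). Of their Dkk2 UMIs in library 2, 11 of 26 came from 1 barcode, and of their Sfrp4 UMIs in library 1, 122 of 240 did. Contractile markers in macrophages were at 947 and 2089 CPM and fibroblast markers at 1568 and 2299 CPM. The part of such RNA from other classes in these ratios was not tested.

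T or NK barcodes had 2 of 6 genes past it, against 7.63%. Sfrp2 stood at 20.5 and 292 CPM there, but 111 of its 232 UMIs in library 2 came from 1 barcode and the whole from 17 of 130 barcodes, and without that barcode, a comparison chosen after the values were seen, the level was 152 CPM. Axin2 had a ratio of 0.260 (0.0488 to 0.899) on 20 UMIs in all. Scaling by TMM in place of total UMIs would lower the log2 ratios by 0.12 in chondrocyte-like, 0.14 in endothelial-like, 0.10 in fibroblast-like, 0.16 in macrophage and 0.15 in T or NK barcodes, and by less than that in the other 3 classes.

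**Figure D4:**
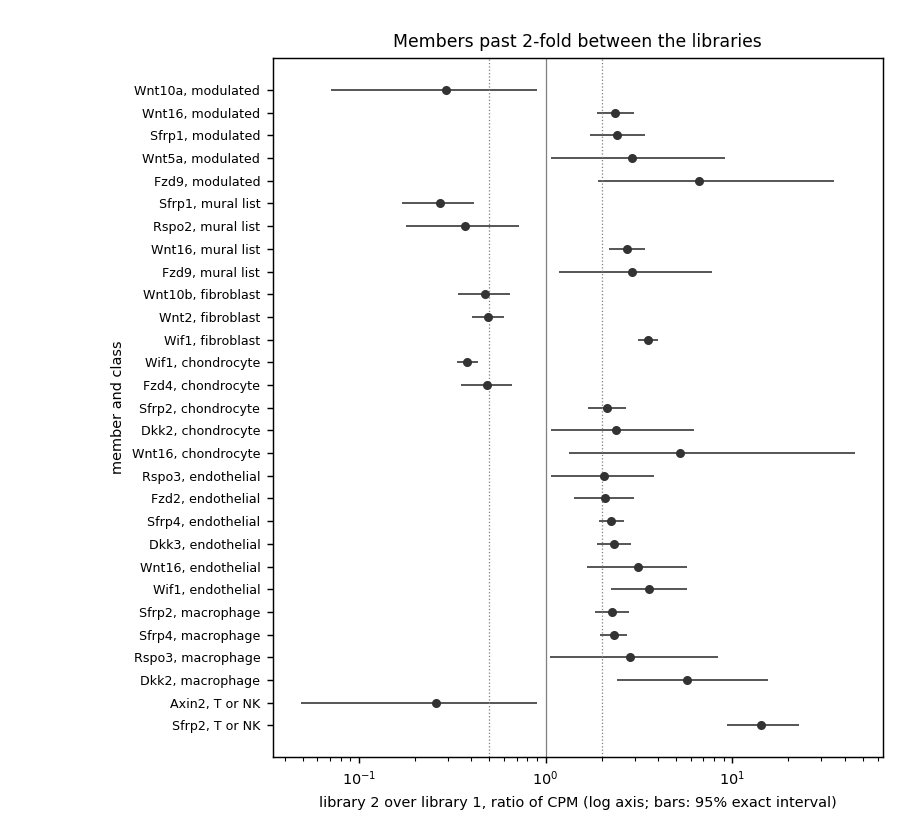
Ratio of CPM, library 2 over library 1, on a log axis for each gene and class past 2-fold, with 95% exact intervals; the dotted lines mark 2-fold in either direction. Wnt16 is above 2 in modulated and mural-list barcodes, Wif1 is above 2 in fibroblasts and below 0.5 in chondrocyte-like barcodes, and contractile smooth muscle has no entry.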

How the data were processed

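The authors deposited 1 unfiltered matrix of raw UMI counts per gene and barcode for both libraries, and per the file headers Cell Ranger 6.0.1 made it. According to the submitters' processing notes, bcl2fastq and Seurat were used with mm10. The annotation is not stated. Depth was 110257209 and 124266676 UMIs. The genes and all lists were chosen with earlier results of these data known. A barcode joined a class when at least 3 distinct markers (4 for lists of more than 7) were found and the list's share of UMIs was at least 2 times its share in free RNA (barcodes of 10 to 100 UMIs). The free RNA share was first taken per library. After levels had been seen it was replaced by the mean of both libraries, because the first form set a different threshold for the same list in each library. The first form is kept as an added alternative, and its results are given in the closing section. Lists too rare in either library (under 500 UMIs) were also left out of the free RNA estimate after it had been seen. Modulated smooth muscle also needed a contractile ratio of 0.5. Some barcodes passed several lists. A chondrocyte pass overrode fibroblast and modulated smooth muscle, a modulated pass overrode contractile, and a lymphatic pass overrode endothelial. Between the mural list and contractile or modulated smooth muscle, the larger ratio decided. No doublet caller was run, and barcodes that still passed several lists were left out. Clusters came from Leiden (scanpy 1.11.5, resolution 1.0, 30 components, 15 neighbours) without the genes described. Genes at 20 CPM in both libraries, those at 5 to 20 CPM, pathway genes at 50 CPM and 2-fold, and library ratios past 2-fold were named by rule. The steps were tested on simulated data.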

Additional observations from a re-analysis of the deposited data

How the results depend on the processing

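With a free RNA reference per library in the gate, the form used first, the classes changed size: chondrocyte-like barcodes numbered 189 and 473 in place of 115 and 608, and endothelial-like ones 1052 and 389 in place of 1131 and 323, and modulated smooth muscle 277 and 183 in place of 197 and 261, which turns round which library held more. Counts of genes past 2-fold between the libraries were then 5 in place of 2 in T or NK, 11 in place of 6 in the endothelium and 7 in place of 3 in fibroblasts, so those counts depend on this choice, which was made after seeing the data. The free RNA estimate depended on the lists used, also chosen after it was seen: with lists common in either library alone, fibroblast barcodes had 0.889% and 9.92%, and with lists common in both, 7.27% and 9.92%. Other changes in library counts were as follows. T or NK had 4 with a stricter gate and 10 with Leiden classes. The main setting had only 6 genes with enough UMIs there, so the number of genes compared changed as well. Chondrocyte-like barcodes had 3 at 5000 UMIs, 3 with TMM and 2 thinned to 3000 UMIs. Contractile smooth muscle had 1 at 1000 UMIs and 1 thinned. The endothelium had 2 thinned, and fibroblasts 6 with Leiden classes. Macrophages had 2 at 5000 UMIs, 7 with Leiden classes and 2 thinned. Modulated smooth muscle had 3 at 5000 UMIs, 1 with Leiden classes and 2 thinned. The mural-list class had 2 with a stricter gate and 0 with Leiden classes, where it held only 32 and 16 barcodes. Of genes led, T or NK had 1 with Leiden classes, contractile smooth muscle 1 at 3-fold, fibroblasts 13 with no minimum level, and the mural-list class 3 with Leiden classes, 0 at 3-fold and 2 with no minimum. Of the pathway list at 3-fold, 4 were led by chondrocyte-like barcodes, 3 by contractile smooth muscle, 4 by the endothelium, 3 by fibroblasts and 0 by modulated smooth muscle, which also had 0 at 1000 UMIs. For the counts at these alternative settings, neither the number of genes that could be called nor the share over all genes is given. Such counts cannot be read against a background, and the cause of their changes was not tested. In library 2 the fibroblast levels of Sfrp4 and Sfrp2 (788 and 771 CPM) changed order at 1000 UMIs (713 and 749 CPM) and with the per-library reference (755 and 792 CPM). Of 36 levels of the 18 genes in their highest class, 1 moved by over 1.5 times, and it did so with Leiden classes only. That was Fzd8 in the mural-list class of library 2, from 27.1 to 6.64 CPM, where the Leiden class held 16 barcodes. More levels left the Poisson interval of the main setting. Of the 36, 12 did at 1000 UMIs, 6 at 5000 UMIs, 0 at a mitochondrial limit of 10% and 2 with a stricter gate. A further count gave 15 with Leiden classes, 14 with TMM, 11 with free RNA subtracted and 8 with the per-library reference. The intervals cover counting error and not such choices. No paired analysis was possible because there is 1 library per sample and no test.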
